A study of Mus musculus with 4 samples.

Results

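Amino acid transport and glutamine synthesis were examined through 7 genes, which were chosen by name from the 32285 genes of each matrix: Slc7a11, Slc3a2, Slc7a5, Slc38a2, Slc38a1, Slc1a5 and Glul. The choice was made with earlier results of the same libraries known, so their values are given as a description. The study compared mice given the glucocorticoid (GC) prednisolone at 6.25 mg/kg/d with mice given placebo, here called control, to find the cell types that modulate bone turnover under the drug. Male C57BL/6J mice aged 20 weeks gave fracture callus and trabecular bone at week 2, which were digested with enzymes and profiled by droplet-based single-cell RNA sequencing, with 1 library for each tissue and condition. The labels name a slow-release pellet for all mice, whereas the study's text describes daily injection in its fracture model, so the tissues may have been dosed by different routes, and tissue and route cannot be told apart. The number of mice behind each library is not given in the sources used here. With 1 library in each group no difference between groups could be tested, and every interval below covers the error of counting molecules and not the spread between mice.

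Cells import amino acids through carriers that exchange one amino acid for another or that move them in together with sodium. Slc7a11 (xCT) takes up cystine, the oxidized form of the cysteine used to make glutathione, and releases glutamate. Slc7a5 (LAT1) takes up large neutral amino acids such as leucine, a signal for mTORC1, and both need the shared heavy chain Slc3a2 (CD98) to reach the cell surface. Slc38a1 and Slc38a2 (SNAT1 and SNAT2) bring in glutamine and other small neutral amino acids with sodium, and Slc38a2 is known to be induced when amino acids run short. Slc1a5 (ASCT2) exchanges glutamine and other neutral amino acids, and Glul (glutamine synthetase) makes glutamine from glutamate and ammonia. Glul is a known glucocorticoid-induced gene in muscle and other tissues, and Slc7a11 is a known target of the transcription factors ATF4 and NRF2.

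The genes lie on 6 mouse chromosomes in GRCm38. Slc7a11 is at chr3:49892526-50443614 on the minus strand, Slc38a2 at chr15:96687392-96699730 on the minus strand and its neighbour Slc38a1 at chr15:96571418-96642913 on the minus strand. Slc7a5 is at chr8:121881150-121907694 and Slc3a2 at chr19:8706882-8723369, both on the minus strand, whereas Slc1a5 at chr7:16781340-16798274 and Glul at chr1:153899944-153909723 are on the plus strand. Promoter windows of RefSeq in build GRCm38.p6 were matched for 4 of the 7 genes (Slc7a11, Slc38a2, Slc3a2 and Glul). The 250 bases before the start of transcription are shown for 3 of them, the genes on which the main results turn, 5′ to 3′ on the strand of the gene, at chr3:50443614-50443863 for Slc7a11, chr15:96699729-96699978 for Slc38a2 and chr1:153899679-153899928 for Glul. Capitals mark motif matches.
Slc7a11: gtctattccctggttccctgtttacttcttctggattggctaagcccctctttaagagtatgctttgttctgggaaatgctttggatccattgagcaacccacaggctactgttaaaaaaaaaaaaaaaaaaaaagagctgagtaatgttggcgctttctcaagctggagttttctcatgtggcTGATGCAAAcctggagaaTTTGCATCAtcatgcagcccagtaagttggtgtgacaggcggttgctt
Slc38a2: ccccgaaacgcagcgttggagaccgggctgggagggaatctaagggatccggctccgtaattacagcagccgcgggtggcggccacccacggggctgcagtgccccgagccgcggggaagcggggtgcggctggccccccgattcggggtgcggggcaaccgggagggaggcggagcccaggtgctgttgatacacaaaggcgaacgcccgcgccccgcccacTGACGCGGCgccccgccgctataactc
Glul: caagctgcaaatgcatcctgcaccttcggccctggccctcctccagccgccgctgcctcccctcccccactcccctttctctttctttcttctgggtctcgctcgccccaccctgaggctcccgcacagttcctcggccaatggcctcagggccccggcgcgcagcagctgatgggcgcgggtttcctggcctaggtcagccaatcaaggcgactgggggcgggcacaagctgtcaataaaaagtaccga

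Both capital runs of Slc7a11 (TGATGCAAA at -66 and TTTGCATCA at -48) match TGATGNAAN, the element bound by ATF4 with C/EBP proteins, on opposite strands. That motif was found on either strand in 3.95% of 32851 promoter windows. The capital run of Slc38a2 (TGACGCGGC at -27) matches the antioxidant response element TGACNNNGC, which was found in 12.4% of windows. No match to the glucocorticoid response element (0.00913% of windows) or to the E-box CACGTG (7.15% of windows) was found in these windows of Slc7a11, Slc38a2, Slc3a2 or Glul. The glucocorticoid response element was sought only in its exact form, found in 3 of 32851 windows, so a match was unlikely in any gene. Its absence says nothing about looser forms or sites outside the windows. The windows held 43.2% G and C bases in Slc7a11, 72% in Slc38a2, 53.6% in Slc3a2 and 64.8% in Glul, against a median of 52.4%.

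The 4 libraries held 95852254, 64388215, 41239842 and 45876714 unique molecular identifiers (UMIs, each standing for 1 captured RNA molecule) in control callus, GC callus, control trabecular and GC trabecular bone in that order, and 6707, 6890, 3806 and 4602 cells were kept. Median UMIs per cell ranged from 3285 to 6320.5, and any 2 libraries shared 5 to 11 cell barcodes. Cells were clustered within each tissue and clusters were named from fixed markers, so each class name stands for cells that look like that type and not for sorted cells. Levels are CPM, the UMIs of a gene summed over the cells of a class and scaled to the same total in every class. Since neither the kit's coverage nor gene length was modelled, levels are compared within a gene and not between genes. Trabecular bone gave no cluster with the markers of chondrocytes, osteoblasts or osteoclasts and only 17 control and 45 GC cells of the stromal or skeletal progenitor class, so that its classes were nearly all of blood lineages. Of the clusters, 8 of 39 in callus and 10 of 32 in trabecular bone came almost entirely from 1 library, meaning that less than 10% of their cells were from the other library. Callus clusters 4 and 16 were named from 7 of 7 monocyte and 6 of 8 conventional dendritic markers, but the 10 genes leading each by fold held none of these. They held 1 marker of another class, which was Clec4d of mature neutrophils in cluster 4 and Ccr2 of monocytes in cluster 16, so both are compared by number and their names are less certain. Callus monocytes are cluster 4 with the 30 cells of cluster 35. Trabecular cluster 9, named monocytes, also passed 6 of 6 markers of granulocyte-monocyte progenitors or promyelocytes, and 6 cycling markers. Its 10 leading genes held 3 monocyte markers and 3 of those progenitors (Prtn3, Ctsg and Mpo). It held 155 of 330 control and 201 of 367 GC monocytes, so that class is not free of precursors. Callus clusters 3 and 9, named chondrocytes, also passed 5 of 5 hypertrophic chondrocyte markers, and Col10a1 led both by fold. They held 1077 and 138 GC cells and 6 and 452 control cells. The chondrocyte class is thus not free of hypertrophic cells, and their part in its ratios was not tested. The GC callus matrix listed 7762 barcodes and no empty droplets, so its free RNA could not be measured.

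In callus, GC and control could be compared in 16 classes (at least 15 cells in each library), and 95 of the 112 pairs of gene and class held at least 50 UMIs. A pair is called past 1.5-fold on log2((CPM + 5)/(CPM + 5)). In GC callus 28 pairs were higher and 3 were lower past that limit, and 16 of the 28 were Slc38a2. In trabecular bone 66 of 77 pairs in 11 classes were measured, of which 11 were higher and 11 lower, and 7 of the 11 higher pairs were Glul. Over all genes and classes, 6.36% of measured pairs were higher and 7.90% lower in callus, and 6.16% were higher and 8.78% lower in trabecular bone.

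**Figure D1:**
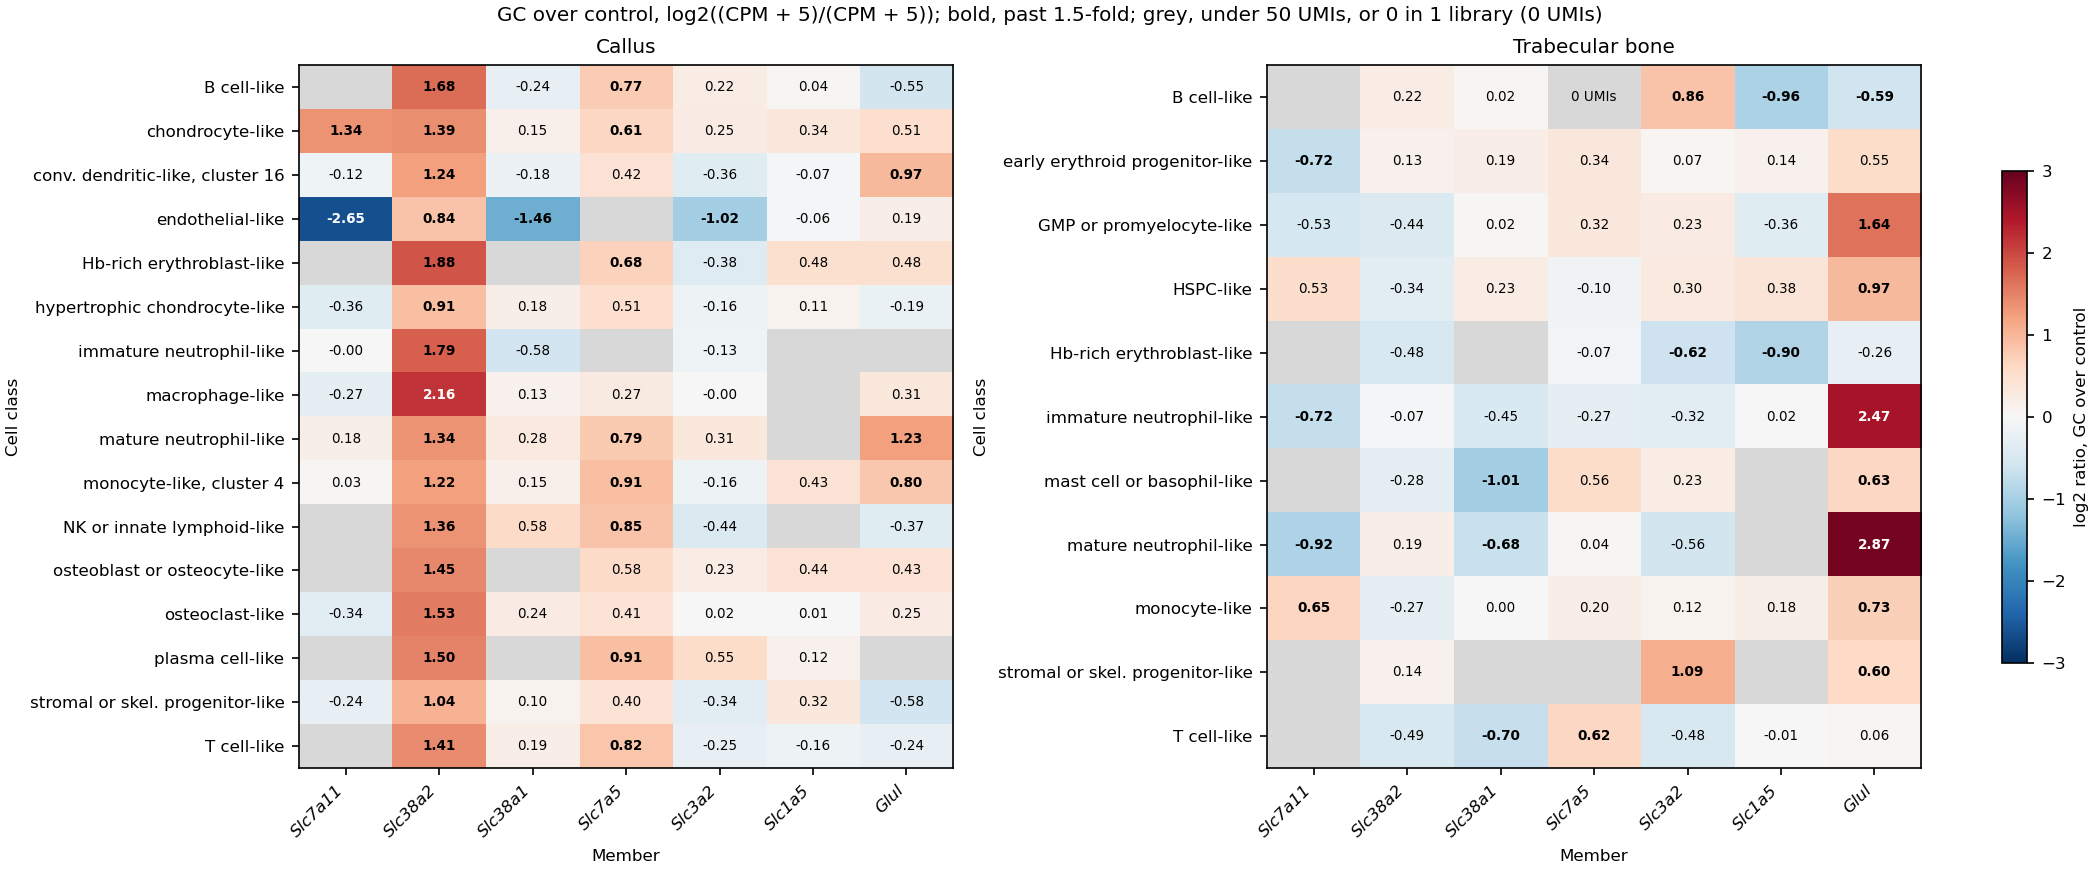
Log2 ratio of GC over control for each of the 7 genes (columns) in each class (lines of the grid), callus at left and trabecular bone at right, from 1 library per condition. Bold values are past 1.5-fold and grey cells were not given a ratio. Slc38a2 lies between 0.84 and 2.16 in all 16 callus classes, and Glul reaches 2.87 in trabecular mature neutrophils.

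Class by class in callus, the number of the 7 genes called was close to the share of all genes called in some classes and above it in others. In the cartilage and bone-forming lineage, 3 of 7 measured genes were past 1.5-fold in chondrocytes, where 5.18% of all tested genes were called. In hypertrophic chondrocytes it was 1 of 7 against 3.96%, in osteoblasts or osteocytes 1 of 5 against 13.1%, in stromal or skeletal progenitors 1 of 7 against 9.6% and in osteoclasts 1 of 7 against 10.3%. Endothelial cells had 4 of 6 called, 1 higher and 3 lower, against 16.6%. In the myeloid classes 3 of 6 were called in mature neutrophils (27% of all genes), 1 of 4 in immature neutrophils (33.2%), 3 of 7 in monocytes of cluster 4 (20.9%), 1 of 6 in macrophages (22.7%) and 2 of 7 in conventional dendritic cells of cluster 16 (20.4%). In the lymphoid classes 2 of 6 were called in B cells (25%), 2 of 6 in T cells (17.8%), 2 of 5 in NK or innate lymphoid cells (18.1%) and 2 of 4 in plasma cells (30.3%), while hemoglobin-rich erythroblasts had 2 of 5 (27.5%). Over all callus cells together 1 of 7, Slc38a2, was called, against 3.17% of all genes. A level over all cells also moves with the make-up of the cells.

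In trabecular bone the myeloid classes had 3 of 6 called in mature neutrophils (19.7% of all tested genes), 2 of 7 in immature neutrophils (3.28%), 2 of 7 in monocytes (2.8%) and 1 of 7 in granulocyte-monocyte progenitors or promyelocytes (4.15%). Hematopoietic stem or progenitor cells had 1 of 7 called (8.46%), early erythroid progenitors 1 of 7 (6.28%), hemoglobin-rich erythroblasts 2 of 5 (40.9%) and mast cells or basophils 2 of 5 (17.7%). T cells had 2 of 6 called (24.5%), stromal or skeletal progenitors 2 of 3 (35%) and B cells 4 of 6 (62.7%). The trabecular B cell comparison set 310 control cells against 16 GC cells. All 16 GC cells were in cluster 17, with 97 control cells. Clusters 16 and 21, with Vpreb3 among their 10 leading genes, held 137 and 76 control cells and 0 GC cells. The B cells of the 2 libraries thus differed in make-up, and its part in their ratios was not tested. Their median log2 ratio over all genes was -0.60. The corresponding median was -0.40 in hemoglobin-rich erythroblasts and 0.28 in mature neutrophils, so a ratio in those classes is read against that shift. In callus the median shift was -0.18 in B cells, -0.17 in T cells and 0.10 in immature neutrophils. Over all trabecular cells 2 of 7 were called, Glul higher and Slc7a11 lower, against 3.4% of all genes.

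**Figure D2:**
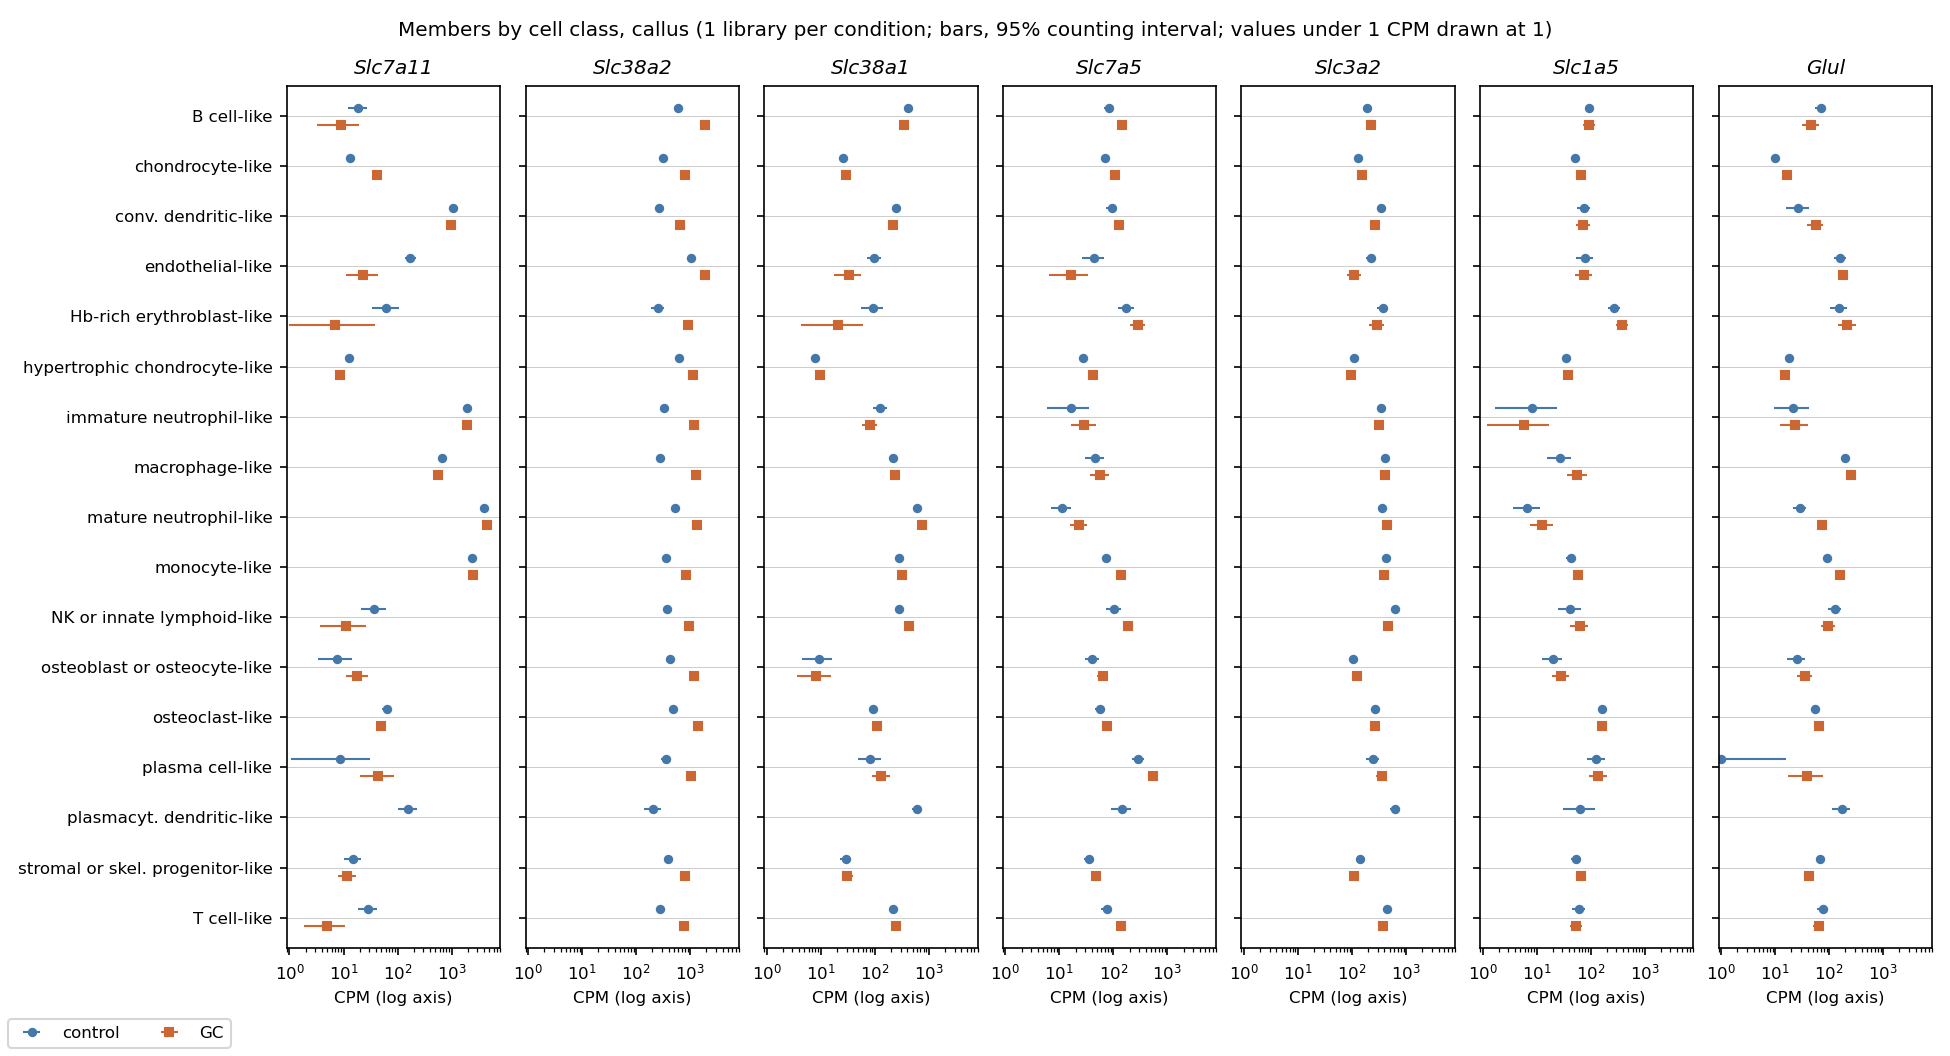
Level of each gene in CPM (log axis) by class in callus, with control as circles and GC as squares, 1 library each, and bars for the 95% counting interval. Slc7a11 spans from 4.96 CPM in GC T cells to 4452 CPM in GC mature neutrophils, whereas the Slc38a2 levels of the classes lie closer together and every GC square sits to the right of its control circle.

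The cystine carrier Slc7a11 was a myeloid gene in callus. Its level in mature neutrophils was 3923 CPM in control and 4452 CPM in GC, a ratio of 1.13 (95% counting interval 1.10 to 1.17). Monocytes of cluster 4 held 2379 and 2431 CPM, and immature neutrophils held 1923 and 1916 CPM. These 3 classes differed little between the libraries. Conventional dendritic cells of cluster 16 followed with 1064 and 979 CPM, and macrophages with 676 and 557 CPM. Within control the counting intervals of these 5 classes did not overlap, so their order held beyond counting error. Endothelial cells (172 CPM) and plasmacytoid dendritic cells (156 CPM) came next and overlapped. In the lower part of the order, osteoclasts (62.5 CPM), hemoglobin-rich erythroblasts (62.4 CPM) and NK or innate lymphoid cells (37.3 CPM) overlapped, as did every neighbouring pair from there down to osteoblasts or osteocytes (7.45 CPM). Mature neutrophils and monocytes together accounted for most Slc7a11 molecules of control callus, with 46.9% and 32.7%.

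After each cell was thinned to 1000 UMIs, Slc7a11 was seen in 88.2% of 1285 control and 90.8% of 841 GC callus mature neutrophils (90.2% and 92.1% without thinning), with 284 and 369 shallower cells left out. In stromal or skeletal progenitors, a class in which the gene was near its lowest, the thinned share was 0.633% in control (158 cells) and 0.518% in GC (193 cells) (11.2% and 7.69% without thinning). Median depths were 1270 and 1133.5 UMIs in the neutrophils and 11351 and 11229 in the progenitors. The deeper class thus had the lower share.

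Within callus mature neutrophils the 2 clusters were unequally filled. Cluster 0 held 508 control and 1158 GC cells, and cluster 2 held 1061 control and 52 GC cells. Slc7a11 was lower in GC within cluster 0 (4865 and 4539 CPM) and within cluster 2 (3499 and 2690 CPM), although the class as a whole was slightly higher in GC. Leaving out clusters that came almost entirely from 1 library gave a log2 ratio of -0.10 in place of 0.18.

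Trabecular neutrophils had less Slc7a11 than their callus counterparts, and less again with GC. Control mature neutrophils held 688 CPM in trabecular bone against 3923 CPM in callus, a 5.70-fold difference (5.51 to 5.90). Between immature neutrophils it was 140 against 1923 CPM, or 13.7-fold (12.5 to 15.1). Trabecular monocytes held 21.7 CPM, beside 2379 CPM in callus cluster 4. Over both libraries, trabecular cluster 9, which also passed progenitor markers, held 22.6 CPM and cluster 11 held 33.9 CPM. Of all tested genes, 63.4% in mature and 58.1% in immature neutrophils were past 1.5-fold between the control libraries of the tissues. Tissue and library cannot be told apart in these comparisons. With GC the trabecular mature neutrophils were at 361 CPM, 0.524 of control (0.501 to 0.548), and the immature neutrophils at 83.1 CPM, 0.594 of control (0.546 to 0.647). Empty droplets held 135 CPM of Slc7a11 (104 to 173) in control and 58.9 CPM (39.8 to 84.1) in GC trabecular bone. The immature neutrophil levels lay within those intervals, and the part of free RNA was not tested. The thinned share of mature neutrophils with the transcript was 46.5% in control and 26.7% in GC (83.1% and 58.0% without thinning), and in B cells of control trabecular bone it was 0.647%. Beside this, the summed level of the 6 immature neutrophil markers within the mature class was 11638 CPM in control and 21919 CPM in GC, with no marker at 0, while that of the 10 mature markers was 359054 and 272807 CPM, and their part in the result was not tested. Within the clusters holding cells of both libraries Slc7a11 was lower in GC as well, at 936 and 536 CPM in cluster 0 and at 305 and 164 CPM in cluster 4. The 3 clusters of GC cells ranged from 195 CPM (cluster 1) through 394 CPM (cluster 3) to 813 CPM (cluster 6). In GC the callus level in mature neutrophils was 12.3 times that of trabecular bone (11.8 to 12.9).

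Trabecular monocytes went the other way, with 21.7 CPM of Slc7a11 in control and 37.0 CPM in GC, a ratio of 1.70 (1.38 to 2.11). A small cluster of 24 GC and 4 control cells carried 400.1 CPM in GC, and the larger clusters 9 and 11 held 19.2 and 25.3 CPM and 28.1 and 41.4 CPM in control and GC. Free RNA in empty droplets held 135 CPM of Slc7a11 in control and 58.9 CPM in GC trabecular bone, above the monocyte levels of both libraries. The immature neutrophil markers in these monocytes summed to 2282 CPM in control and 5585 CPM in GC, with all 6 detected in each, and their part was not tested. Early erythroid progenitors were called lower, at 35.5 CPM on 78 UMIs and 19.6 CPM on 29 UMIs, and that direction turned under 4 alternatives. Granulocyte-monocyte progenitors or promyelocytes (22.3 and 13.96 CPM) and hematopoietic stem or progenitor cells (35.1 and 52.9 CPM) stayed within 1.5-fold.

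Chondrocytes of GC callus showed 41.2 CPM of Slc7a11 against 13.2 CPM in control, a ratio of 3.12 (2.81 to 3.46). This rested on 1 cluster, which also passed the hypertrophic markers. Cluster 3 held 1077 GC and 6 control cells, carried 152 CPM and had a median of 2527 UMIs per cell, whereas clusters 1, 7 and 9 ranged from 6.43 to 21.3 CPM in GC and from 9.80 to 15.5 CPM in control. Without clusters of that kind the log2 ratio was 0.33 in place of 1.34. The summed immature neutrophil markers in chondrocytes were 12.9 CPM in control and 77.0 CPM in GC and the mature ones 102 and 182 CPM, all of them detected in both libraries, and their part was not tested. Empty droplets of control callus held 145 CPM of Slc7a11. Clusters 1, 7 and 9 were deeper than cluster 3, with medians of 24965, 23442.5 and 26038 UMIs per cell. The class medians were 25880 UMIs in control and 5225 in GC. The part of depth in the chondrocyte ratios of any gene was not tested.

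Endothelial cells of callus were lower in Slc7a11 with GC, at 172 CPM (75 UMIs) in control and 23.3 CPM (10 UMIs) in GC, a ratio of 0.135 (0.062 to 0.263). Slc38a1 in the same cells was at 98.8 and 32.7 CPM and Slc3a2 at 227 and 110 CPM, and these 3 genes were the ones called lower in GC callus. Beside them, 9 of 10 mature neutrophil markers were detected in each library and their summed level was 588 CPM in control (Mmp8 at 0) and 145 CPM in GC (Trem1 at 0), and their part in the result was not tested. The class had 53 control and 79 GC cells.

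The heavy chain Slc3a2 was spread more evenly. In control callus it was highest in NK or innate lymphoid cells (636 CPM) and plasmacytoid dendritic cells (631 CPM), whose intervals overlapped, and lowest in osteoblasts or osteocytes (105 CPM). In GC callus NK or innate lymphoid cells held 466 CPM, a ratio of 0.734 (0.609 to 0.882), T cells went from 441 to 370.2 CPM and mature neutrophils from 357 to 444 CPM, all within 1.5-fold. The log2 ratio of mature neutrophils was 0.31, and -0.01 without clusters almost entirely of 1 library. In trabecular bone Slc3a2 was called higher in stromal or skeletal progenitors, from 72.0 to 159 CPM on 9 and 45 UMIs, and in B cells, from 75.1 to 140.4 CPM on 141 and 7 UMIs with an interval of the ratio from 0.738 to 3.95. In the stromal or skeletal progenitors the mature neutrophil markers summed to 2470 CPM in control, with 6 of 10 detected and Cxcr2, Csf3r, Trem1 and Clec4d at 0, and to 24837 CPM in GC, with all 10 detected, and their part in the higher Slc3a2 was not tested. Hemoglobin-rich erythroblasts were called lower, at 128 CPM in control and 82.0 CPM in GC. This was -0.62 on the log2 scale, against a median shift of -0.40 for all genes in that class. It pools cluster 8 (97 control and 344 GC cells, Slc3a2 at 33.4 CPM over both) and cluster 13 (106 and 114 cells, 268 CPM). The part of that mix in the lower level was not tested. Mature neutrophils were at 156 and 104 CPM, or -0.56 on the log2 scale, which was past the limit at -0.64 without clusters almost entirely of 1 library.

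Since xCT and LAT1 both depend on Slc3a2, the share of cells holding Slc3a2 was compared between cells with and without Slc7a11 after thinning to 1000 UMIs. Of 1134 control callus mature neutrophils with Slc7a11, 28.9% also had Slc3a2, against 27.8% of those without. In GC callus it was 35.3% of 764 cells against 23.4% of 77 cells. Callus monocytes gave 36.3% against 29.8% in control and 34.2% against 36.1% in GC, and trabecular mature neutrophils 17.9% against 14.6% in control and 10.96% against 8.75% in GC. The exact intervals overlapped in each of these comparisons. Slc7a5 was too sparse in neutrophils for such a comparison, with 14 control and 10 GC callus cells holding it. In GC trabecular hemoglobin-rich erythroblasts, 21.1% of 38 cells with Slc7a5 had Slc3a2 (9.55% to 37.3%), against 6.3% of 413 without (4.15% to 9.09%). These intervals did not overlap. Control erythroblasts gave 26.1% against 11.05%, with overlapping intervals. The erythroblast class pools cluster 8, low in both genes (Slc7a5 at 44.9 and Slc3a2 at 33.4 CPM), and cluster 13, higher in both (177 and 268 CPM). The shares were not read within these clusters, so the part of that mix was not tested. In the other classes the intervals overlapped and the shares went either way. They were 20.1% against 15.5% in GC callus chondrocytes and 26.3% against 40.1% in GC callus NK or innate lymphoid cells.

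The leucine carrier Slc7a5 was higher in GC in each of the 14 callus classes in which it was measured, with log2 ratios from 0.27 to 0.91 and a median of 0.65, and 8 were past 1.5-fold. The interval of the ratio included 1 in macrophages and conventional dendritic cells. Plasma cells, which secrete antibody, had the most, with 284 CPM in control and 538 CPM in GC (ratio 1.89, 1.38 to 2.61). Hemoglobin-rich erythroblasts held 173 and 280.0 CPM, NK or innate lymphoid cells 102 and 188 CPM, B cells 81.7 and 142 CPM and T cells 75.8 and 138 CPM. The lymphoid classes were therefore all between 1.74-fold and 1.89-fold. Monocytes of cluster 4 went from 71.8 to 139 CPM (1.94, 1.59 to 2.38), chondrocytes from 69.8 to 109 CPM (1.57, 1.49 to 1.65) and mature neutrophils from 11.1 to 22.8 CPM (2.05, 1.16 to 3.67), the last on 23 and 32 UMIs. Without clusters almost entirely of 1 library the log2 ratio was 0.51 in chondrocytes and 0.39 in mature neutrophils, both under the limit. Chondrocytes stayed past it in 5 and mature neutrophils in 8 of 13 alternatives. Hypertrophic chondrocytes, at 27.5 and 41.4 CPM, osteoblasts or osteocytes, at 40.6 and 63.1 CPM, and stromal or skeletal progenitors, at 35.3 and 48.3 CPM, were also higher but under the limit. In endothelial cells it had 19 and 7 UMIs, too few to be compared, with 43.7 and 16.3 CPM. Empty droplets of control callus held 60.1 CPM of Slc7a5 (45.5 to 77.9). Control hypertrophic chondrocytes, osteoblasts or osteocytes, stromal or skeletal progenitors and mature neutrophils lay below that interval. Control chondrocytes, T cells and monocytes of cluster 4 lay within it, but above the interval of barcodes under 100 UMIs (52.7 CPM, 46.7 to 59.2). Free RNA of GC callus could not be measured, and the part of free RNA in the Slc7a5 ratios was not tested.

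In trabecular bone 1 of 10 measured classes was past 1.5-fold higher and 1 lower. Slc7a5 was highest in early erythroid progenitors, with 89.6 CPM in control and 115 CPM in GC (1.28, 1.04 to 1.58), and lowest in mature neutrophils, with 3.63 and 3.86 CPM. T cells were called higher, from 21.5 to 35.8 CPM on 7 and 47 UMIs, with an interval of the ratio from 0.747 to 4.36. B cells had 30.9 CPM in control and 0 of 49874 UMIs in GC, which allows up to 60.2 CPM, so that a lower level in GC B cells was not detectable at this depth.

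**Figure D3:**
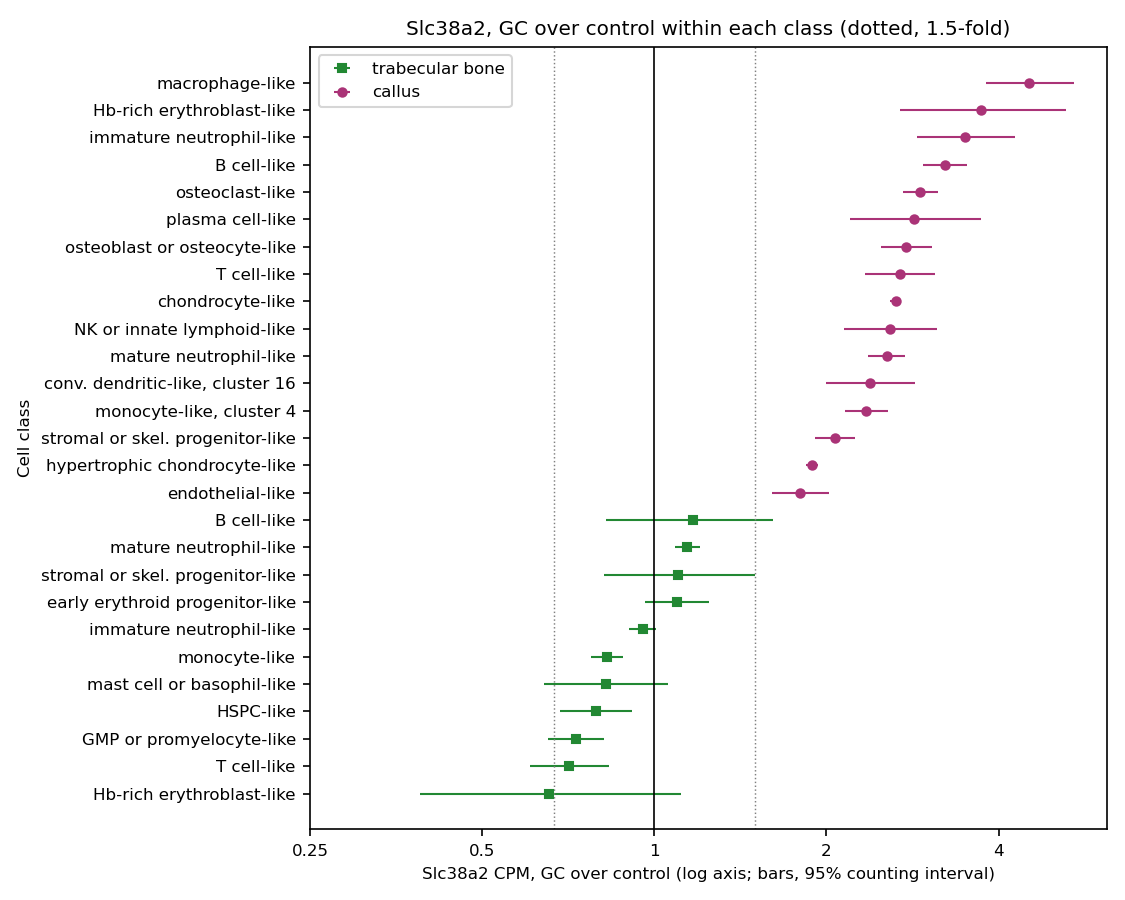
Ratio of Slc38a2 in GC over control (log axis) by class, callus as circles and trabecular bone as squares, 1 library per condition, with 95% counting intervals and dotted lines at 1.5-fold either way. Callus classes lie from 1.80 (endothelial) to 4.53 (macrophage), and trabecular classes from 0.654 to 1.17.

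The glutamine carrier Slc38a2 was past 1.5-fold higher in GC in 16 of 16 callus classes, with a median log2 ratio of 1.40. Over all callus cells its level was 392 CPM in control and 989 CPM in GC, a ratio of 2.52 (2.49 to 2.56). Macrophages showed the highest ratio, from 281 to 1276 CPM (4.53, 3.80 to 5.43), followed by hemoglobin-rich erythroblasts from 250 to 931 CPM (3.73, 2.69 to 5.24) and immature neutrophils from 333 to 1163 CPM (3.498, 2.88 to 4.28). These 3 intervals overlap. B cells went from 586 to 1889 CPM, osteoclasts from 484 to 1413 CPM and chondrocytes from 308 to 814 CPM. The lowest ratios were in stromal or skeletal progenitors (382 and 791 CPM), hypertrophic chondrocytes (608 and 1147 CPM) and endothelial cells (1057 and 1902 CPM). Endothelial cells held the most in control, and in GC their interval overlapped that of B cells. The share of thinned callus cells with the transcript was 31.4% in control and 61.0% in GC (70.3% and 86.4% without thinning). Empty droplets of control callus held 362 CPM (324 to 402), near the level over all control cells and above that of several control classes. These included macrophages, T cells, hemoglobin-rich erythroblasts, chondrocytes and plasmacytoid dendritic cells (208 CPM). Control immature neutrophils (333 CPM) and monocytes (352 CPM) were below 362 CPM but within its interval. Barcodes under 100 UMIs held 325 CPM (310 to 341), an interval that the monocytes exceeded. The thinned share was lowest in conventional dendritic cells among the compared classes of control, at 20.2%, so no class that lacks the gene was at hand as a background. The part of free RNA in the ratios was not tested. The ratio was also above 1.5-fold in both larger mature neutrophil clusters, at 602 and 1352 CPM in cluster 0 and 496 and 1285 CPM in cluster 2.

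Few genes behaved in this way in callus. Of 369 genes with enough UMIs in all 16 classes, 4 (1.08%) were higher past 1.5-fold in every class and 3 (0.813%) were lower in every class. The 4 were Slc38a2, the mitochondrially encoded mt-Nd4l and mt-Atp8, and AY036118, with median log2 ratios of 1.40, 1.34, 2.24 and 1.47. Those lower in every class included Rps15, which encodes a ribosomal protein, with a median of -1.16, and Gm10076, with -0.85. Genes outside the members were chosen here after their values were seen. The GC callus library also differed from control in RNA shared by many classes. Cartilage transcripts, scored by 6 genes, were called lower in 67 of 84 measured pairs of gene and class and higher in 0, hemoglobin transcripts higher in 29 of 48, and stress genes that respond to tissue dissociation lower in 57 of 129. The part of these library-wide differences in the Slc38a2 result was not tested.

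In trabecular bone Slc38a2 was not past 1.5-fold in any of the 11 classes, with log2 ratios from -0.49 to 0.22. Mature neutrophils held 374 CPM in control and 427 CPM in GC (1.14, 1.09 to 1.20), monocytes 316 and 261 CPM (0.827, 0.775 to 0.881), and T cells 652 and 463 CPM (0.710, 0.606 to 0.834). The intervals of these 3 classes exclude 1. In mature neutrophils, however, the log2 ratio of 0.19 lay below the median shift of all genes (-0.09 when centred on it) and was -0.0049 without clusters almost entirely of 1 library. Without such clusters T cells were at -0.65, past the limit. Between the 2 control libraries callus was at 1.41 times trabecular bone in mature neutrophils, 0.897 times in B cells, 0.432 times in T cells and 11.5 times in hemoglobin-rich erythroblasts (250 and 21.7 CPM; 7.11 to 19.1). Between the 2 GC libraries callus was at 3.16, 2.48, 1.63 and 65.7 times trabecular bone in the same classes. The B cell value of 2.48 (1.80 to 3.52) rests on 38 trabecular UMIs of 16 cells, all of cluster 17. Control trabecular B cells were mostly of other clusters. Of all tested genes, 63.4%, 53%, 48.9% and 85.6% were past 1.5-fold between the control libraries in those classes, in the same order. Between the GC libraries it was 60.9%, 65.2%, 52.4% and 92%. Hemoglobin in the erythroblasts was at 297617 CPM in control callus and 824200 CPM in control trabecular bone, and at 323340 and 860510 CPM in GC. Its part in these ratios was not tested.

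The sodium-coupled carrier Slc38a1 was a gene of plasmacytoid dendritic cells (618 CPM, control callus), mature neutrophils (604 CPM) and B cells (418 CPM), and low in hypertrophic chondrocytes (7.84 CPM). The first and second of these overlapped in their intervals. In GC callus mature neutrophils held 736 CPM (1.22, 1.12 to 1.32). Within their clusters Slc38a1 was lower in GC, at 947 and 757 CPM in cluster 0 and 450.2 and 302 CPM in cluster 2, and the log2 ratio of the class turned from 0.28 to -0.32 without clusters almost entirely of 1 library. B cells held 354 CPM (0.848, 0.726 to 0.987) and NK or innate lymphoid cells 424 CPM against 282 CPM in control (1.504, 1.19 to 1.905), which was just under the limit with the pseudocount of 5 CPM. In trabecular mature neutrophils the gene was far lower than in callus, at 46.0 CPM in control and 26.9 CPM in GC (0.584, 0.492 to 0.691). The log2 ratio of -0.68 became -0.35, under the limit, without clusters almost entirely of 1 library, and stayed past the limit in 8 of 13 alternatives. T cells of trabecular bone went from 212 to 129 CPM (0.606, 0.456 to 0.814) and mast cells or basophils from 125 to 59.8 CPM on 35 and 24 UMIs. Mature neutrophil markers summed to 32331 and 4673 CPM in the T cells and to 3029 and 30387 CPM in the mast cells or basophils, in control and GC, all 10 being detected except Csf3r at 0 in control mast cells or basophils, and their part was not tested. Monocytes did not differ beyond counting error, with 110.8 and 111.1 CPM (1.003, 0.904 to 1.11).

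Slc1a5, the exchanger of glutamine and other neutral amino acids, was not past 1.5-fold in any of 12 callus classes. It was highest in hemoglobin-rich erythroblasts (274 CPM in control and 385 CPM in GC), followed by osteoclasts, the bone-resorbing cells (161 and 162 CPM). Neutrophils were lowest, with too few UMIs to be among those 12 classes. Mature neutrophils held 6.77 and 12.8 CPM on 14 and 18 UMIs, and immature neutrophils 8.11 and 5.84 CPM on 3 UMIs each. Chondrocytes went from 51.8 to 66.9 CPM (1.29, 1.21 to 1.38). In trabecular bone the level in mature neutrophils was 1.13 CPM on 9 UMIs in control and 3.25 CPM on 27 UMIs in GC. Calls of a lower level were made there in hemoglobin-rich erythroblasts from 104 to 53.7 CPM (0.515, 0.403 to 0.658) and in B cells from 238 to 120.3 CPM, the latter on 6 UMIs of 16 GC cells with an interval of the ratio from 0.184 to 1.11. Set against the median of all genes, the first of these was -0.49 and the second -0.35 on the log2 scale, both within 1.5-fold. The erythroblast class pools cluster 8 (97 control and 344 GC cells) and cluster 13 (106 and 114). Over both libraries Slc1a5 was at 2.44 CPM in cluster 8 and 252 CPM in cluster 13. The part of that mix in the lower level was not tested.

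**Figure D4:**
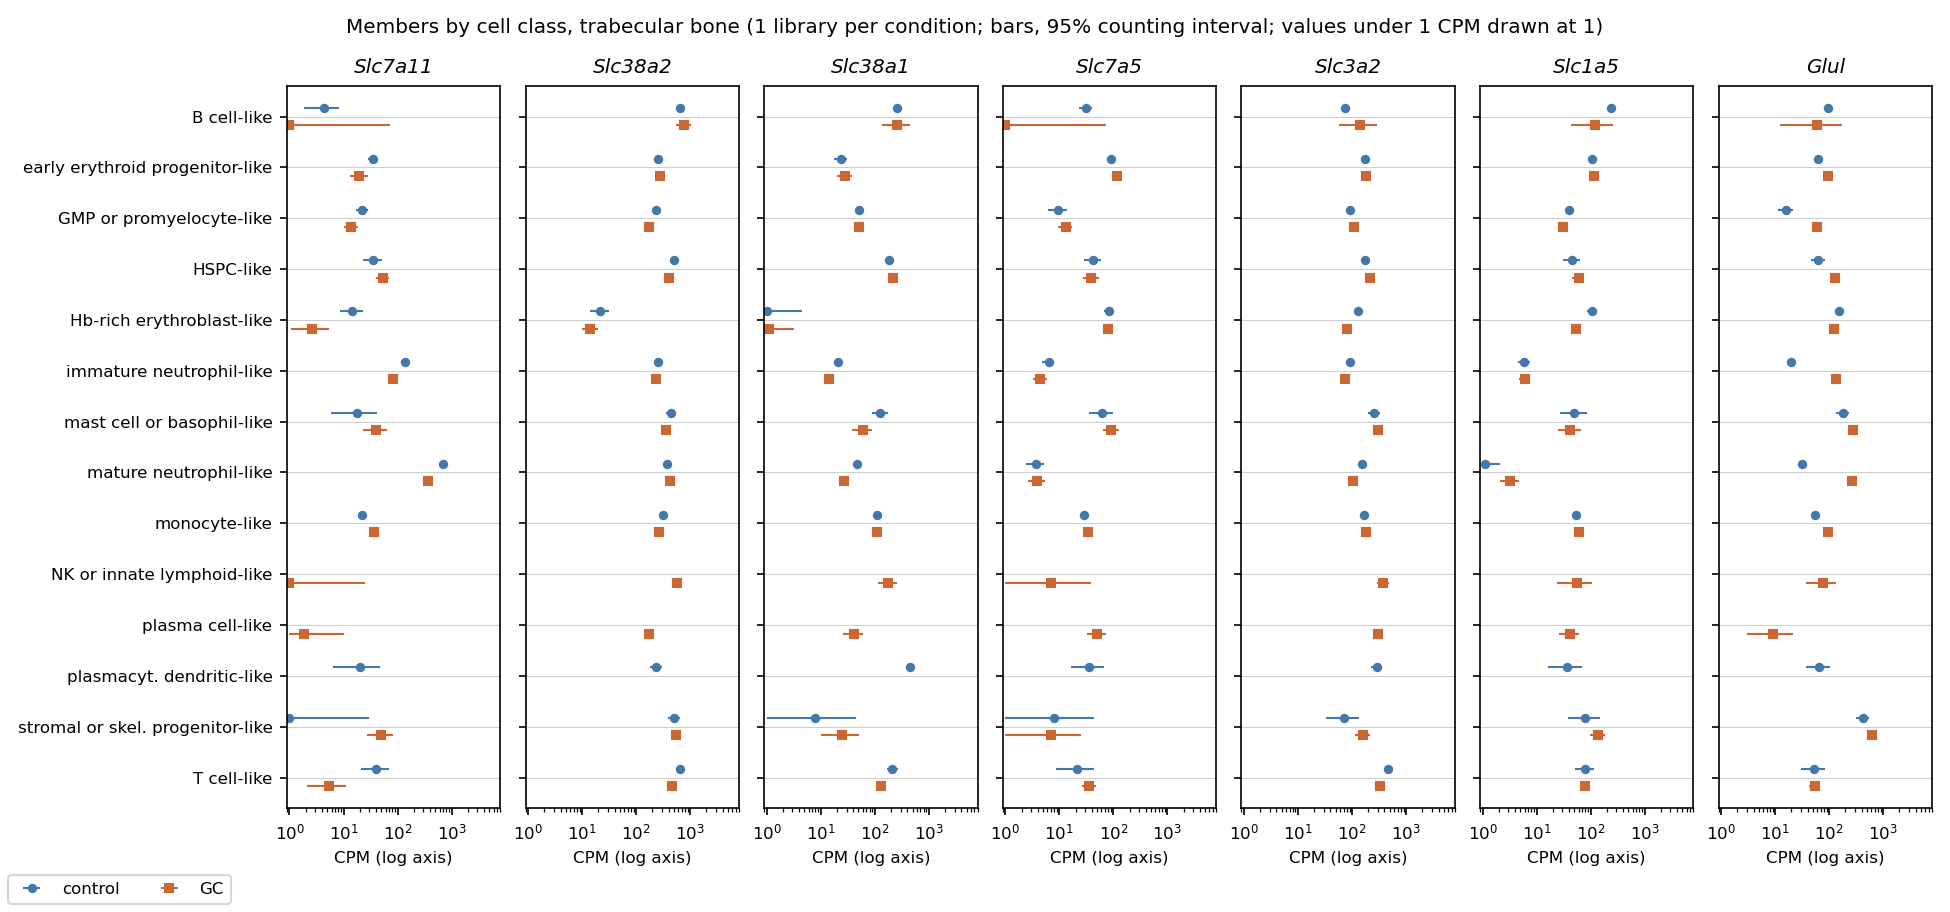
Level of each gene in CPM (log axis) by class in trabecular bone, with control as circles and GC as squares, 1 library each, and bars for the 95% counting interval. Glul in mature neutrophils moves from 31.6 to 263 CPM, and Slc7a11 in the same class from 688 to 361 CPM.

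Glul, the enzyme that makes glutamine, was higher in GC in the granulocytic and progenitor classes of trabecular bone. Mature neutrophils held 31.6 CPM in control and 263 CPM in GC, a ratio of 8.30 (7.28 to 9.49). Immature neutrophils went from 20.0 to 134 CPM (6.66, 5.73 to 7.77) and granulocyte-monocyte progenitors or promyelocytes from 15.7 to 59.6 CPM (3.79, 2.71 to 5.39). The intervals of mature and immature neutrophils overlapped, and their order turned without clusters almost entirely of 1 library. Hematopoietic stem or progenitor cells went from 63.2 to 129 CPM (2.04, 1.44 to 2.93), monocytes from 55.5 to 95.2 CPM (1.71, 1.503 to 1.96), mast cells or basophils from 179 to 279 CPM (1.56, 1.11 to 2.22) and stromal or skeletal progenitors, with the highest level of all classes, from 416 to 632 CPM (1.52, 1.11 to 2.11). In the last 2 classes the mature neutrophil markers were also higher in GC, with the values given for Slc38a1 and Slc3a2, as were hemoglobin transcripts, at 1176 and 10640.3 CPM in mast cells or basophils and 1559 and 20170.3 CPM in stromal or skeletal progenitors, and their part in the Glul ratios was not tested. Early erythroid progenitors, at 63.2 and 94.5 CPM (1.495, 1.17 to 1.91), lay just under the limit. T cells were at 52.3 and 54.8 CPM, and hemoglobin-rich erythroblasts had a ratio of 0.832 (0.694 to 1.001). B cells were called lower, at 93.2 and 60.2 CPM on 175 and 3 UMIs, and not when centred on the median of all genes (0.01). Over all trabecular cells the level was 44.8 CPM in control and 146 CPM in GC (3.26, 3.08 to 3.46).

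The share of thinned trabecular mature neutrophils with Glul was 2.94% in control and 23.0% in GC (13.3% and 53.9% without thinning, at median depths of 4842 and 3669.5 UMIs), and that of immature neutrophils 2.54% and 13.3%. Empty droplets held 45.1 CPM in control and 116 CPM in GC, so free RNA also carried more Glul in GC. In GC the level was above the interval of empty droplets (88.2 to 149.5 CPM) in mature neutrophils, mast cells or basophils and stromal or skeletal progenitors. It lay within that interval in immature neutrophils, hematopoietic stem or progenitor cells, hemoglobin-rich erythroblasts, monocytes and early erythroid progenitors. T cells, B cells and granulocyte-monocyte progenitors or promyelocytes were below it. Barcodes under 100 UMIs gave a narrower interval in GC (113 CPM, 102 to 125). Immature neutrophils and hematopoietic stem or progenitor cells lay above that one, and hemoglobin-rich erythroblasts at its upper edge. Monocytes and early erythroid progenitors lay below it. The part of free RNA in these ratios was not tested. In mature neutrophils the summed immature neutrophil markers and hemoglobin transcripts were also higher in GC, the former with the values given for Slc7a11 and the latter at 3528 and 7264 CPM.

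**Figure D5:**
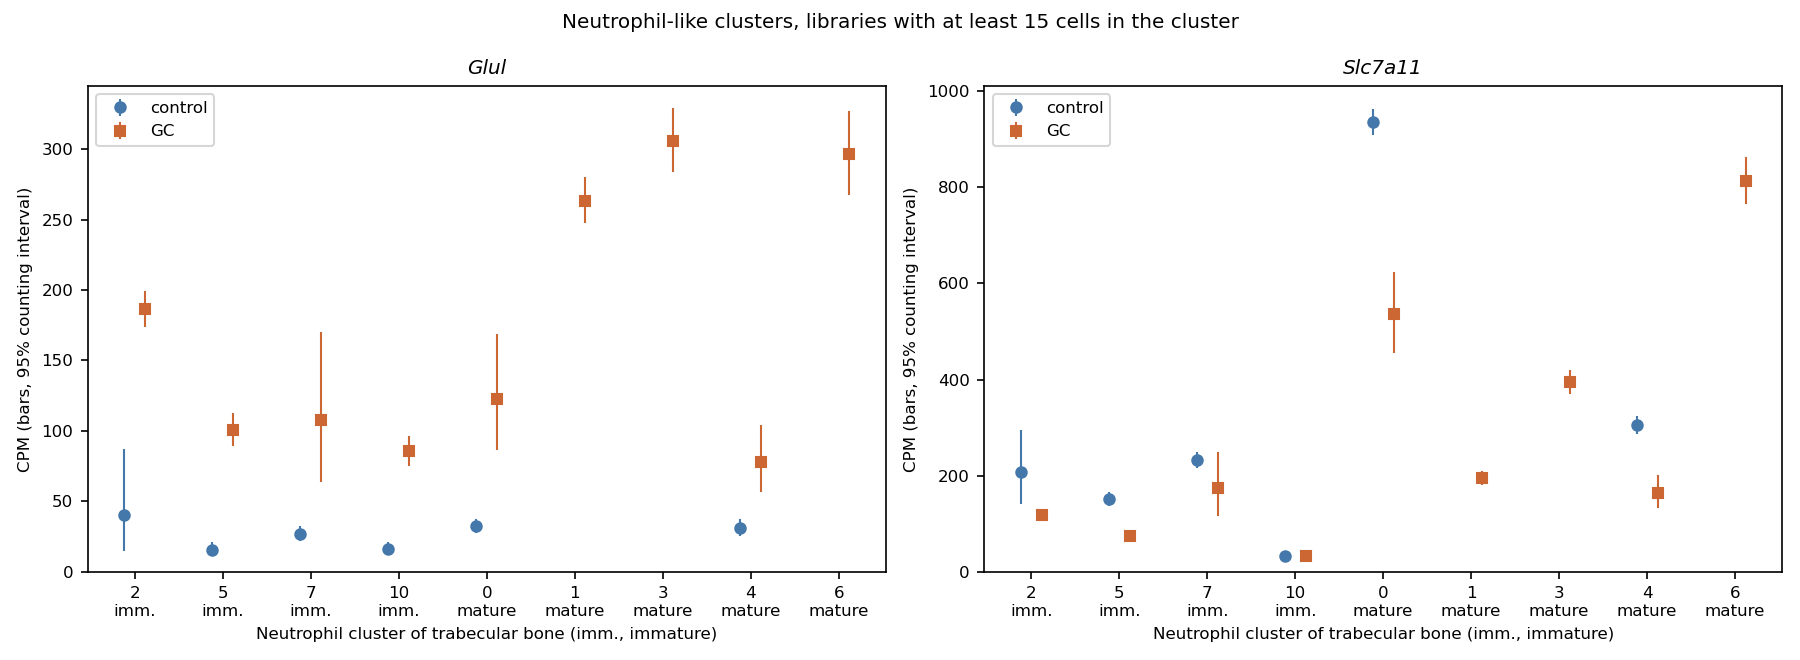
Glul (left) and Slc7a11 (right) in CPM in the 9 neutrophil clusters of trabecular bone, with control as circles and GC as squares, for libraries with at least 15 cells in the cluster, and bars for the 95% counting interval. Glul is higher in GC in each of the 6 clusters that have both points, and the GC-filled clusters 1, 3 and 6 lie between 263 and 306 CPM.

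Neutrophils of the GC library were clustered mostly apart from those of control, so Glul was also read within clusters. In mature cluster 0 it was 32.2 CPM in 1095 control cells and 122 CPM in 56 GC cells, and in cluster 4 it was 30.8 CPM in 488 and 77.7 CPM in 73. The clusters filled by GC cells held 263 CPM (cluster 1, 724 cells), 306 CPM (cluster 3, 661 cells) and 296 CPM (cluster 6, 490 cells). In the immature clusters it was 40.1 and 186 CPM (cluster 2), 15.6 and 101 CPM (cluster 5), 26.5 and 108 CPM (cluster 7) and 16.0 and 85.4 CPM (cluster 10). Without clusters almost entirely of 1 library the log2 ratio was 1.21 in place of 2.87 in mature neutrophils and 2.23 in place of 2.47 in immature neutrophils, so the size in mature neutrophils depended on those clusters and its direction did not.

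In callus Glul was called higher in 3 of 14 classes. Mature neutrophils held 28.5 CPM in control and 73.5 CPM in GC (2.57, 1.85 to 3.61), monocytes of cluster 4 held 91.5 and 163 CPM (1.78, 1.49 to 2.13) and conventional dendritic cells 26.2 and 56.3 CPM (2.15, 1.19 to 4.02). Without clusters almost entirely of 1 library the log2 ratio of mature neutrophils was 0.75 in place of 1.23. It stayed past the limit, but its size depended on those clusters. Macrophages, the class with the most Glul in callus, were at 200 and 248 CPM (1.24, 0.946 to 1.63). B cells (69.1 and 45.5 CPM) and stromal or skeletal progenitors (66.7 and 43.0 CPM) were lower in GC within 1.5-fold, the latter with a ratio of 0.644 (0.498 to 0.831). Plasma cells had 0 of 228881 UMIs in control, which allows up to 13.1 CPM, and 39.5 CPM on 8 UMIs in GC. Between tissues, mature neutrophils of callus held 0.902 times the trabecular level in control (0.667 to 1.20) and 0.280 times in GC (0.227 to 0.341), and immature neutrophils 1.08 times (0.459 to 2.17) and 0.175 times (0.0901 to 0.306). Stromal progenitors of the control libraries differed by tissue, with 66.7 CPM in callus and 416 CPM in trabecular bone, a ratio of 0.160 (0.116 to 0.224), on 153 and 52 UMIs. Of all tested genes of that class, 50.1% were past 1.5-fold between the control libraries.

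Genes related to the members by pathway were counted over all classes. These counts are read beside the shares over all genes, 6.36% of pairs higher and 7.90% lower in callus, and 6.16% and 8.78% in trabecular bone. Several lists lay near those shares, such as glutamine and glutamate metabolism in callus (6.25% higher and 5.36% lower). Other carriers of the SLC7 and SLC3 families were higher in 7 of 31 measured pairs of gene and class in callus and lower in 1, of which 6 were Slc7a1, the cationic amino acid carrier (13 classes, median log2 ratio 0.29). The other SLC38 and SLC36 carriers were higher in 4 of 40 and lower in 2, and carriers of the SLC1, SLC6, SLC43 and SLC16 families higher in 6 of 46 and lower in 8. In trabecular bone these 3 lists were higher in 1 of 14, 0 of 24 and 0 of 22 pairs and lower in 0, 2 and 1. In callus, genes of glutamine and glutamate metabolism were higher in 7 of 112 and lower in 6. Glutathione genes of callus were higher in 11 of 95 and lower in 6, the former counting Gclc, which catalyses the limiting step of glutathione synthesis, in 3 of 14 classes.

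Among known regulators, the NRF2 list in callus was higher in 28 of 114 pairs and lower in 5. Of its genes, Hmox1, which degrades heme, was higher in 9 of 14 classes and Nfe2l2, which encodes NRF2 itself, in 6 of 14. Gclc and Gclm, higher in 3 and 2 of 14 classes, are counted in both this list and the glutathione list. The ATF4 list was higher in 20 of 181 and lower in 25, with Atf4 itself higher in 0 of 16 and lower in 1. Genes of mTORC1 and amino acid sensing were higher in 14 of 154 and lower in 16, and the Myc axis higher in 6 of 56 and lower in 3. The median log2 ratio was 0.18 for the NRF2 list, 0.04 for the ATF4 list and -0.08 for the mTORC1 list, beside -0.01 over all genes in callus.

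Genes of the glucocorticoid response were counted in the same way, and the difference between the tissues was not tested. They were higher in 26 of 80 pairs and lower in 9 in trabecular bone, with a median log2 ratio of 0.33 against 0.01 over all genes, and higher in 12 of 110 and lower in 24 in callus, with a median of -0.07. Tsc22d3, which encodes GILZ, was higher in 7 of 10 trabecular classes (median 1.01) and 2 of 12 callus classes (median 0.09). Fkbp5, a chaperone partner of the glucocorticoid receptor, was higher in 6 of 7 (median 1.31) and 3 of 7 (median 0.52). Other genes of the list went down in callus. Errfi1 was lower in 8 of 14 callus classes and higher in 0, and Per1 lower in 5 of 11 and higher in 0. Klf9 was higher in 3 of 11 and lower in 0. In trabecular mature neutrophils 5 of 10 genes of the list were higher and 0 lower. Of all tested genes in that class, 17.1% were higher and 2.66% lower, with a median shift of 0.28. In the same tissue the NRF2 list was higher in 5 of 66 pairs and lower in 8, and the ATF4 list higher in 16 of 114 and lower in 15. Glutamine and glutamate metabolism was higher in 8 of 79 and lower in 6, and glutathione genes in 5 and 11 of 69. Genes of mTORC1 and amino acid sensing were higher in 7 of 102 and lower in 8, the Myc axis in 3 and 6 of 42, dissociation stress in 10 and 15 of 87, and hemoglobin transcripts in 16 and 12 of 44, while 1 cartilage pair was measured and was higher.

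The genes most like each member were sought over 58 profiles of class by library by Pearson correlation of log2(CPM + 5) among 8308 genes, where profiles of 1 library share its depth and free RNA. For Slc7a11 they were Clec4d (0.955), Ptafr (0.937) and Il1rn (0.922), of which Clec4d is also a marker used to name mature neutrophils. Slc38a1 was closest to Dock10 (0.882), Inpp5d (0.881) and H2-K1 (0.863), and Slc38a2 to Rsrc2 (0.824), Cggbp1 (0.821) and Usp34 (0.807). Slc7a5 was closest to Ghitm (0.822), the seryl-tRNA synthetase gene Sars (0.753) and Mthfd2 (0.741), an enzyme of mitochondrial folate metabolism. Slc1a5 was closest to Shmt2 (0.808), also of mitochondrial folate metabolism, Bola3 (0.772) and Usp14 (0.759). Slc3a2 was closest to Rgs1 (0.742), Slc38a1 (0.729) and Galnt6 (0.727). Glul had no close match, the highest being Znfx1 (0.591), Cat (0.580), which encodes catalase, and Adam10 (0.565). Between members, Slc3a2 correlated at 0.407 with Slc7a11 and 0.447 with Slc7a5.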

How the data were processed

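Whole-number UMI counts per gene and barcode were used as deposited by the authors in 4 matrices. Per the labels' processing notes the submitters used Cell Ranger 5.0.1, Seurat 3.2.0 and mm10, whereas the file headers name Cell Ranger 4. The labels name kit v2, although 3 matrices list 6794880 barcodes. No cell annotation was used.

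Cells were called by a test against empty droplets (at least 500 UMIs, false discovery rate 0.01), except in GC callus, whose 7762 listed barcodes were taken as called. Cells with under 200 genes or over 10% mitochondrial UMIs were removed, as were the cells with the highest doublet scores (405, 428, 124 and 183 cells). Each tissue was clustered with Leiden at resolution 1 on 2000 variable genes and 30 components, without the 138 genes of the members and lists. A cluster needed at least 3 fixed markers of a class to be named. It still stayed unnamed with very few cells, low UMIs and no leading marker, leading markers of another class, or markers of 3 or more unrelated classes. Callus clusters 20, 23, 36 and 37, left unnamed for such mixed markers, held 55, 92, 49 and 46 GC cells and 2, 1, 0 and 0 control cells. Counts were summed per class and library, and CPM was compared between GC and control where both libraries had at least 15 cells and the gene at least 50 UMIs. Intervals are exact at 95% (Poisson, conditional binomial for ratios, Clopper-Pearson for shares). UMIs in cells of 1 library are not replicates.

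The members and lists were chosen with earlier results of these data known. The text names all 7 members, list genes past 1.5-fold or sharing a role with a member, and the 3 genes most like each member. Python 3.11.15, scipy 1.17.1, scikit-learn 1.9.0 and leidenalg 0.10.2 were used. The ratios were checked on simulated data. Alternatives changed cell calling, filters, clustering, scaling, thinning, pseudocount and thresholds, and 1, which kept only clusters with both libraries, was added after the data were seen. Values of some single genes are not reported here.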

Additional observations from a re-analysis of the deposited data

Results flagged for a closer look

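In several classes found in both tissues the GC over control ratio of a gene went in opposite directions in callus and trabecular bone, with 1 library behind each condition. Each value here is the callus log2 ratio minus that of trabecular bone, and in every case the difference was not tested. For Slc38a2 it was 1.9001 in T cells and 1.49 over all cells. In monocytes (callus cluster 4 against a trabecular class that includes cluster 9, which also passed progenitor markers) it was 1.49. In mature neutrophils it was 1.11 for Slc7a11, 0.96 for Slc38a1 and 0.87 for Slc3a2, all 3 being higher in GC callus and lower in GC trabecular bone. Without clusters almost entirely of 1 library the callus log2 ratios of these 3 were -0.10, -0.32 and -0.01, so their opposite directions rest on such clusters. Slc3a2 differed by -0.28 in monocytes and -1.43 in stromal or skeletal progenitors, where Glul differed by -1.18. Over all cells it was 1.18 for Slc7a11, 0.56 for Slc38a1, 0.54 for Slc1a5 and 0.17 for Slc3a2. The values over all cells also move with the make-up of the cells. Chondrocytes gave 46879312 of 79837515 UMIs in control callus and 22553126 of 55550823 in GC callus. The part of this in the values over all cells was not tested.

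Callus clusters 12 and 18, which the marker rule left unnamed, stood in no class compared above, though they are part of the values over all callus cells, and held members at a higher level in GC than in control. Cluster 12 (158 control and 157 GC cells) had 270 and 707 CPM of Slc38a2 (2.62, 2.22 to 3.09) and 79.6 and 124 CPM of Slc7a5 (1.56, 1.09 to 2.22). Cluster 18 (100 and 104 cells) had 1427 and 2199 CPM of Slc7a11 (1.54, 1.36 to 1.75), 506 and 1146 CPM of Slc38a2 (2.27, 1.85 to 2.78) and 330.1 and 516 CPM of Slc38a1 (1.56, 1.19 to 2.05).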

How the results depend on the processing

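No paired analysis was possible because each group holds 1 library. Slc38a2 stayed past 1.5-fold higher in GC in every callus class under every alternative that gave a ratio, as did Glul in trabecular neutrophils and Slc7a11, lower, in the same cells. In the immature neutrophils, however, Slc7a11 was near the level of free RNA in control and GC, within or above its interval depending on the empty barcodes read. Counts of called pairs (28 higher and 3 lower in callus, 11 and 11 in trabecular bone) moved by over 1.5 times as follows. Pairs lower in callus became 5 with a 1000-UMI cell limit, 5 with no doublets removed, 9 with at least 500 genes, 7 with a mean over cells, 9 after thinning, 6 with a pseudocount of 1 CPM, and 8 or 0 with a minimum of 20 or 200 UMIs. Pairs lower in trabecular bone became 7 with the 1000-UMI limit, 4 with 500 genes, 6 with at most 5% mitochondrial UMIs, 18 after thinning, 7 without hemoglobin, mitochondrial and ribosomal protein genes in the denominator, 7 with a pseudocount of 20 CPM and 7 with at least 200 UMIs. The 1000-UMI, 500-gene and 5% settings compared 10, 9 and 9 trabecular classes in place of 11, so their counts are over fewer classes. Callus had 18 classes with the 1000-UMI limit and 17 with 500 genes or with doublets kept, in place of 16. Pairs higher in trabecular bone became 7 with the 5% limit and 6 with at least 200 UMIs. A limit of 2-fold left 16 higher in callus, and 4 higher and 2 lower in trabecular bone. The counts without clusters of 1 library were 25, 3, 9 and 9, with 46 of 53 called pairs still past the limit. Those lost were Slc7a11 and Slc7a5 in callus chondrocytes, Slc7a5 in callus and Slc38a1 in trabecular mature neutrophils, and Slc3a2, Slc1a5 and Glul in trabecular B cells.

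Of called log2 ratios, 5 changed sign. Slc7a5 in callus hemoglobin-rich erythroblasts was -1.51 with 500 genes, Slc7a11 in trabecular early erythroid progenitors was 0.18 with 500 genes, 0.00550 with the 5% limit, 0.0293 with doublets kept and 0.17 at Leiden resolution 2, Slc7a5 in trabecular T cells was -1.21 after thinning, Slc38a1 in mast cells or basophils was 0.0473 after thinning and Glul in trabecular B cells was 0.00995 when centred. The causes were not tested. Depth limits Slc1a5 and Slc7a5 in neutrophils and every gene in trabecular B cells of GC.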
